A study of Mus musculus with 32 samples.

Results

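Genes whose RNA rose for a time and then declined, with a peak at 16 or 24 h after addition of doxycycline (Dox), were selected by a rule on the expression table. For each row of the expression table with a gene symbol, the deposited log2 values of the 4 samples at each time point were averaged, and a gene was kept if its highest mean fell at 16 h or 24 h, was at least 6, and exceeded both the 0 h mean and the 96 h mean by at least 1.5. Of 25093 rows with a symbol, 10808 had a highest mean of at least 6 and 90 met the whole rule. Of these pulse genes, 44 were highest at 16 h and 46 at 24 h. The rule read the samples at 0, 16, 24 and 96 h and bounded the means at all other times by the peak. Differences between the peak and other times are given as descriptions, without a test. Comparisons of 2 h and of 96 h with 0 h were tested over all genes, although the rule read the 0 h and 96 h samples.

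RNA-seq was performed on mES cells of the KH2 line (strain given as C57BL/6) that carry a *Gata6* transgene, TRE:GATA6-DSREd2, behind a TET-responsive element, with 4 replicates at each of 8 time points and 32 samples in all. At 0 h cells were uninduced, without Dox, in 2i medium with the MEK inhibitor PD0325901, a GSK3 inhibitor and LIF. At 2, 4 and 8 h they were in serum medium with LIF and Dox at 1 µg/ml, and at 16, 24, 48 and 96 h they had spent 12 h in Dox and the remaining time in serum medium without it. Dox, loss of the inhibitors and serum thus began together, Dox had already been removed before the time points at which the members peaked, and these steps cannot be told apart from each other or from elapsed time. All samples came from 1 engineered cell line, and the study states that replicates were run independently, without saying whether they were separate cultures, so the spread between them may be in part technical.

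In the blastocyst, the inner cell mass separates into epiblast (Epi) and primitive endoderm (PrE), and GATA6 is the transcription factor that drives the PrE fate. FGF signalling through MEK and ERK favours PrE and is fed back on by Sprouty proteins and MAPK phosphatases. ES cells held in 2i have low ERK activity and low DNA methylation, and cells that leave this state raise the de novo DNA methyltransferases and pass through a formative stage.

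*Gata6*, the gene on the transgene, had a mean normalized count of 0.371 ± 0.432 (0 h), 14.9 ± 2.59 (2 h), 346 ± 22.6 (8 h), 902 ± 85.7 (16 h) and 2067 ± 154 (96 h; SD, n = 4), in the order the labels imply. This row may hold reads of the endogenous gene and the transgene. Normalized counts are reads divided by the size factor that the authors estimated per sample. The samples held between 3190108 and 12301732 reads on genes, with a median of 8870662.5. Replicates 1 and 2 stood apart from replicates 3 and 4. For samples taken at 1 time point, chi-square divided by its degrees of freedom had a median of 1.53 in the 16 pairs within a set and 10.3 in the 32 pairs across sets. Values of all 4 samples are therefore given for the main members, always in the order of replicates 1 to 4, and means are over n = 4. In bulk RNA, fewer cells of a type and less RNA per cell cannot be told apart.

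Over all 90 members, the median of the mean normalized count, as a share of each gene's own peak, was 16.6% (0 h), 21.2% (2 h), 27.9% (4 h) and 49.7% (8 h). It was 34.2% at 48 h and 13.9% at 96 h. The members highest at 16 h were already at a median of 65.2% of their peak at 8 h and were down to 63.3% at 24 h and 21.2% at 48 h. Those highest at 24 h were at 37.1% (8 h), 73.3% (16 h) and 49.1% (48 h).

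The time of the rise differed widely among members. Of the 90 genes, 5 had gained at least 50% of their rise from 0 h by 2 h, 7 more by 4 h, 25 by 8 h, 38 by 16 h and 15 only at 24 h. In 65 members the deposited mean increased at every step from 2 h to the peak, and in 33 it was lower at 2 h than at 0 h. The assignment to 16 or 24 h was close for some genes, since the deposited means at these times differed by less than 0.2 in 20 members and by at least 1 in 23. With each replicate set taken alone, 64 members kept the same peak time in both sets, and 81 had it at 16 or 24 h in both. The whole rule was met by 67 members on replicates 1 and 2 alone, by 71 on replicates 3 and 4 alone and by 50 on both.

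**Figure D1:**
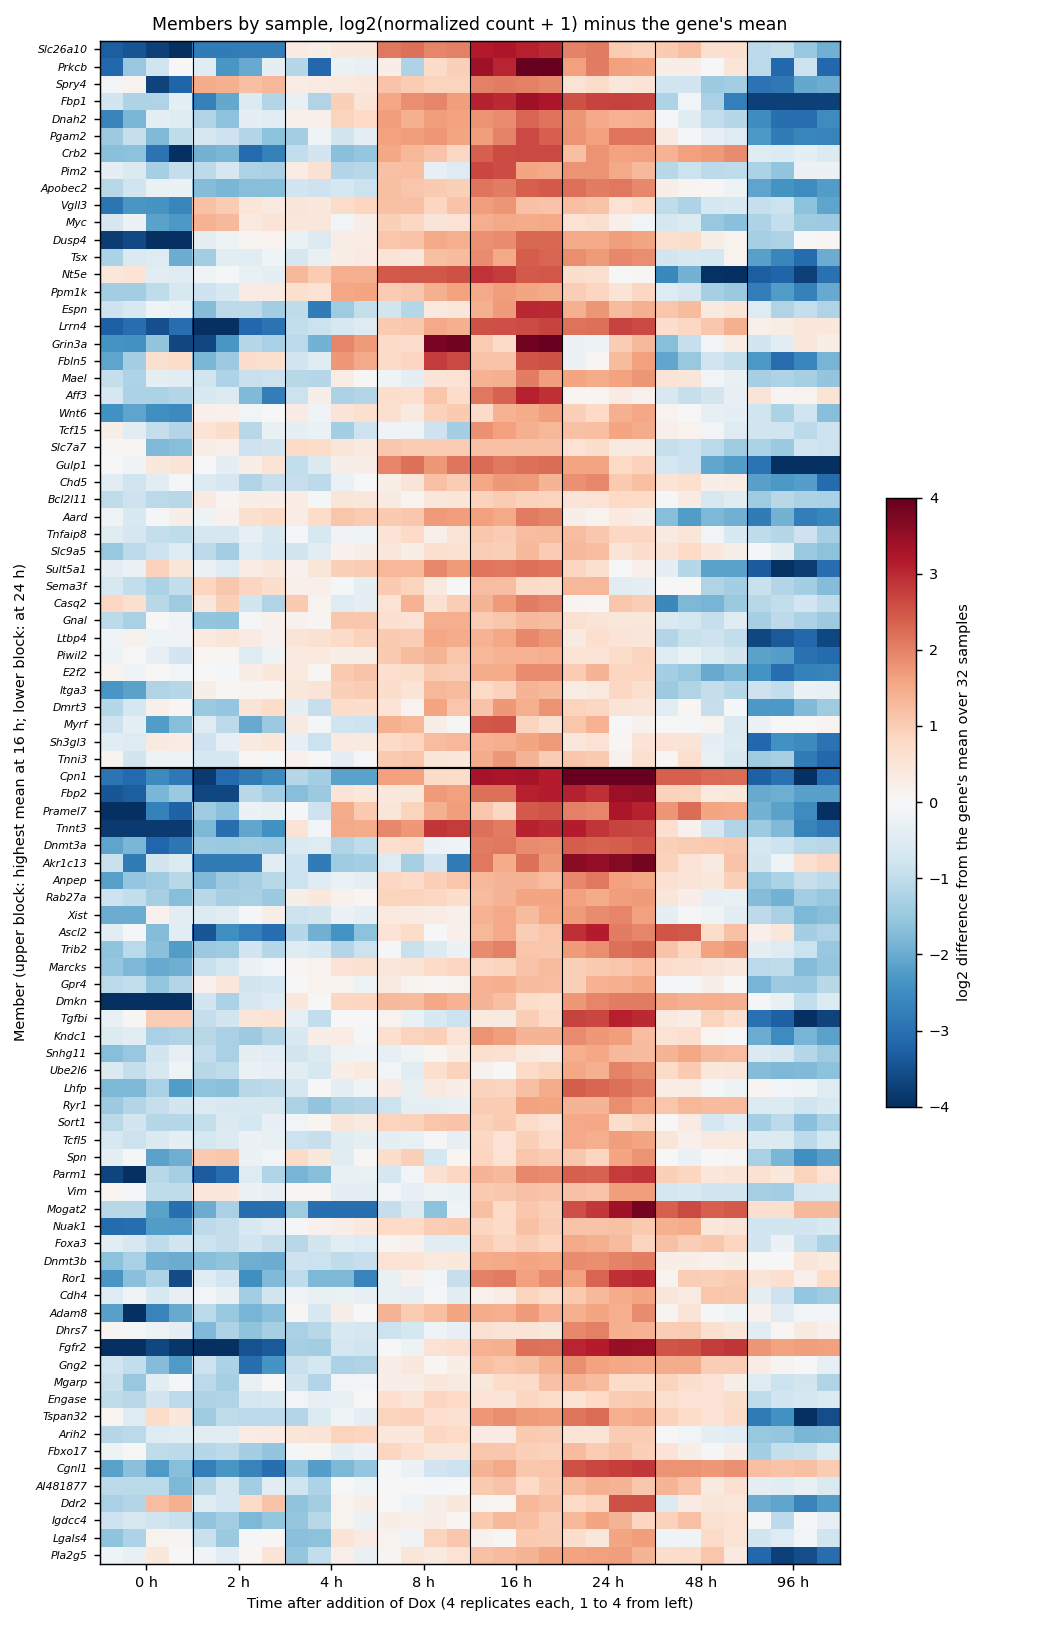
Each row is one of 88 of the 90 members and each column one of the 32 samples, in blocks of 4 replicates from 0 to 96 h; colour is log2(normalized count + 1) minus the gene's mean over all samples, clipped at 4 in either direction. The upper block holds 42 members highest at 16 h and the lower block the 46 highest at 24 h, and the red columns at 16 and 24 h are flanked by blue at 0 h and 96 h by construction of the rule.

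**Figure D2:**
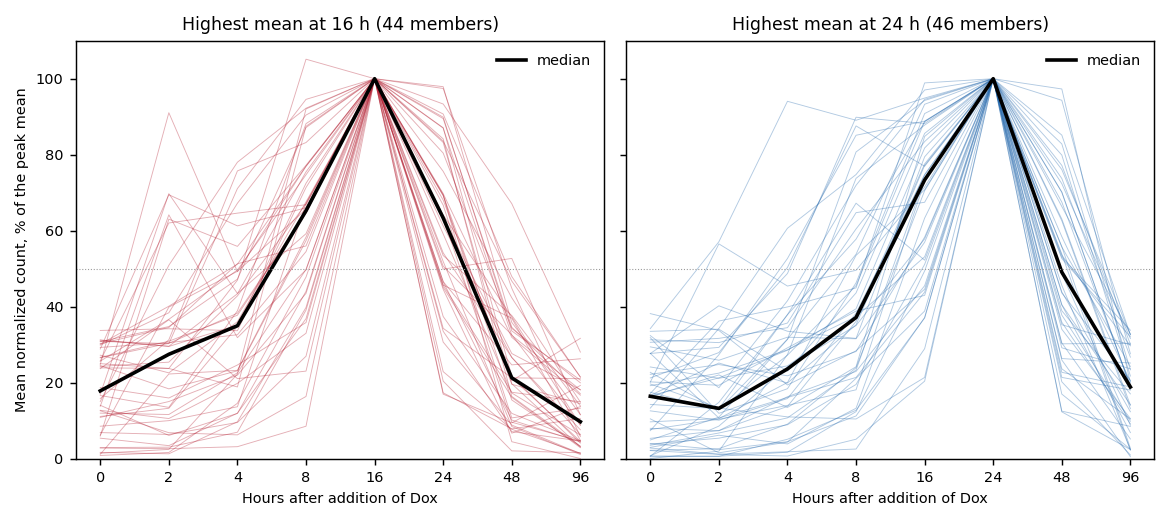
Mean normalized count of each member at the 8 time points as a percentage of its own peak mean (thin lines; the thick line is the median), for the 44 members highest at 16 h (left) and the 46 highest at 24 h (right). The left median stands at 65.2% at 8 h and 21.2% at 48 h, and the right median at 37.1% and 49.1%.

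Comparisons without the 16 and 24 h samples were tested with limma over 15227 genes, and a gene was called, and is said to have risen or fallen, at a false discovery rate (FDR) below 0.1. Values in parentheses with ± or an adjusted p are log2 differences ± SE on log2(normalized count + 1), with Benjamini-Hochberg adjustment over these genes. The threshold of the study, which also asks for a 4-fold difference, is given beside it. All 90 members passed the filter on low counts, and 89 would have done so without the 16 and 24 h samples. At 2 h against 0 h, 26 members (28.9%) were higher, next to 22.2% of all tested genes, and 8 (8.89%) were lower, next to 22.6%. The rule keeps genes with a low 0 h mean, which tilts this comparison towards higher values at 2 h and away from lower ones, and nothing is read from these shares.

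At least 4-fold higher at 2 h were 7 members, next to 2.0% of all genes. They were *Dusp4*, *Dmkn* (4.22 ± 0.20, adjusted p = 1.48e-16), *Vgll3*, *Spry4*, *Pramel7*, *Wnt6* and *Myc*. The tilt towards higher values at 2 h acts on this count and on every single rise from 0 to 2 h. Nothing is read from the excess over all genes. *Dmkn*, a secreted protein of epithelia, had 4.14, 3.40, 2.42 and 1.89 (0 h) and 72.7, 51.3, 78.6 and 87.003 (2 h). The 8 members that fell at 2 h were *Espn*, *Fbxo17*, *Ascl2*, *Tspan32*, *Igdcc4*, *Cgnl1*, *Dhrs7* and *Apobec2*, and each of them rose again in the step to 4 h or to 8 h.

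At 4 h against 2 h, 39 members (43.3%) were higher, next to 13.6% of all genes, and 3 (3.33%) were lower, next to 10.9%, namely *Pla2g5*, *Ryr1* and *Sema3f*. At 8 h against 4 h, 49 (54.4%) were higher, next to 9.51%, and none was lower by limma, next to 7.57%, with 0 members lower at an unadjusted p under 0.05 and 0 by limma voom. After averaging within the replicate sets, which leaves 2 values a group, 16 and 14 members remained called higher in these steps. The rule favours rises before the peak and disfavours falls. It asks for a rise of at least 1.5 from 0 h and caps every earlier mean at the peak. The excess over all genes in these steps is therefore partly set by the selection. The median log2 difference of the members was 0.57 at 4 h and 0.82 at 8 h, beside -0.01 and 0.01 for all tested genes.

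The 4-fold threshold left 5 members at 4 h against 2 h, next to 0.558% of all genes. They were *Lrrn4*, *Grin3a*, *Fgfr2*, *Tnnt3* and *Slc26a10*. At 8 h against 4 h it left 6, next to 0.565%, namely *Gulp1* (2.27 ± 0.34, adjusted p = 1.61e-05), *Crb2*, *Lrrn4*, *Ascl2*, *Pgam2* and *Cpn1*. The members at 4 h and at 8 h were, apart from *Lrrn4*, different genes.

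The first called rise was at 2 h in 26 members, at 4 h in 28 and at 8 h in 17, and 19 had none of these. The last group held *Prkcb*, *Pim2*, *Tcf15*, *Mael*, *Tgfbi* and *Trib2* among others. The 7 members that rose in every step to 2, 4 and 8 h were *Ltbp4*, *Dmkn*, *Adam8*, *Tnnt3*, *Nuak1*, *Slc26a10* and *Dnmt3a*.

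**Figure D3:**
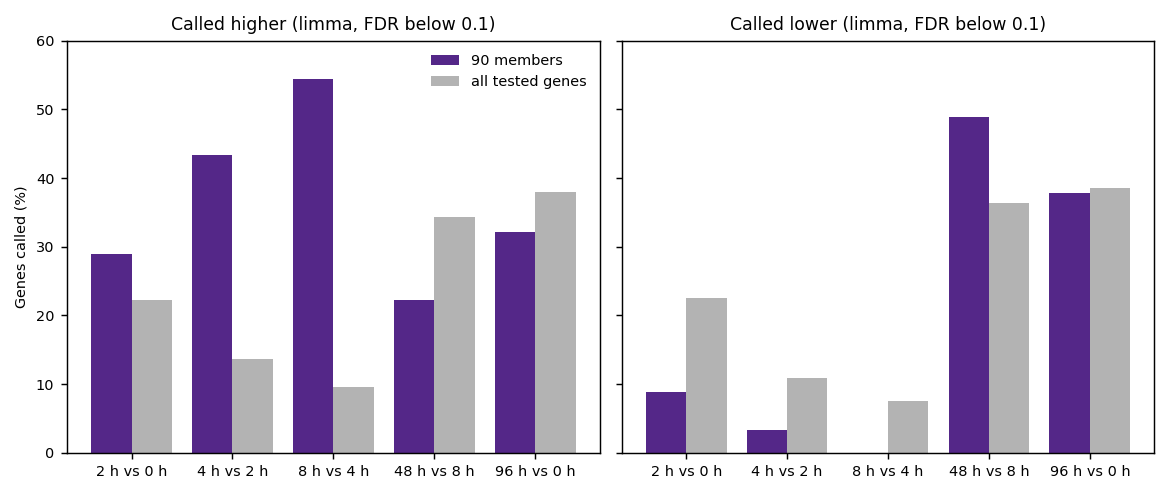
Percentage of the 90 members (purple) and of all 15227 tested genes (grey) called higher (left) or lower (right) in the 5 comparisons without the 16 and 24 h samples, of which 2 use 0 h samples that the rule read, at FDR below 0.1 with limma. The members exceed the grey bars most at 4 h against 2 h (43.3 and 13.6%) and at 8 h against 4 h (54.4 and 9.51%). The rule favours rises in both of these steps.

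At 48 h against 8 h, the sides of the pulse, 44 members (48.9%) were lower, next to 36.3% of all genes, and 20 (22.2%) were higher, next to 34.3%. Of the members highest at 16 h, 35 were lower and 1 was higher, which was *Espn*. Of those highest at 24 h, 9 were lower and 19 higher. No test was made of this difference between peak times, which the choice of peak time favours. The 4-fold threshold left 16 lower members, next to 6.83% of all genes, of which 15 were highest at 16 h.

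At 96 h against 0 h, both of which the rule read, the differences are descriptions, and nothing about the members is read from their calls. Here 29 members (32.2%) were higher, next to 38.0% of all genes, and 34 (37.8%) were lower, next to 38.5%. With limma voom on whole reads 21 were higher and 41 lower. Scaling by total reads moved the median log2 difference of all tested genes from -0.03 to -0.29 in this comparison, and then 26 members were higher and 45 lower.

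Members did not all return to where they began. The largest positive differences between 96 and 0 h (log2 ± SE) were in *Fgfr2*, *Dmkn* (4.55 ± 0.20) and *Dusp4* (4.00 ± 0.36), and the largest negative ones in *Gulp1* (-4.21 ± 0.34), *Tgfbi* (-4.04 ± 0.34) and *Sult5a1* (-3.74 ± 0.33). *Tgfbi*, a matrix protein induced by TGF-beta, had 40.03, 50.95, 97.5 and 98.2 (0 h), 53.4, 40.2, 31.9 and 26.6 (8 h), 321, 318, 433 and 389.8 (24 h) and 5.31, 4.21, 1.26 and 2.84 (96 h). Its 24 h samples stood above and its 96 h samples below all others. At least 4-fold higher were 12 members, next to 9.28% of all genes, and at least 4-fold lower 13, next to 10.3%.

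**Figure D4:**
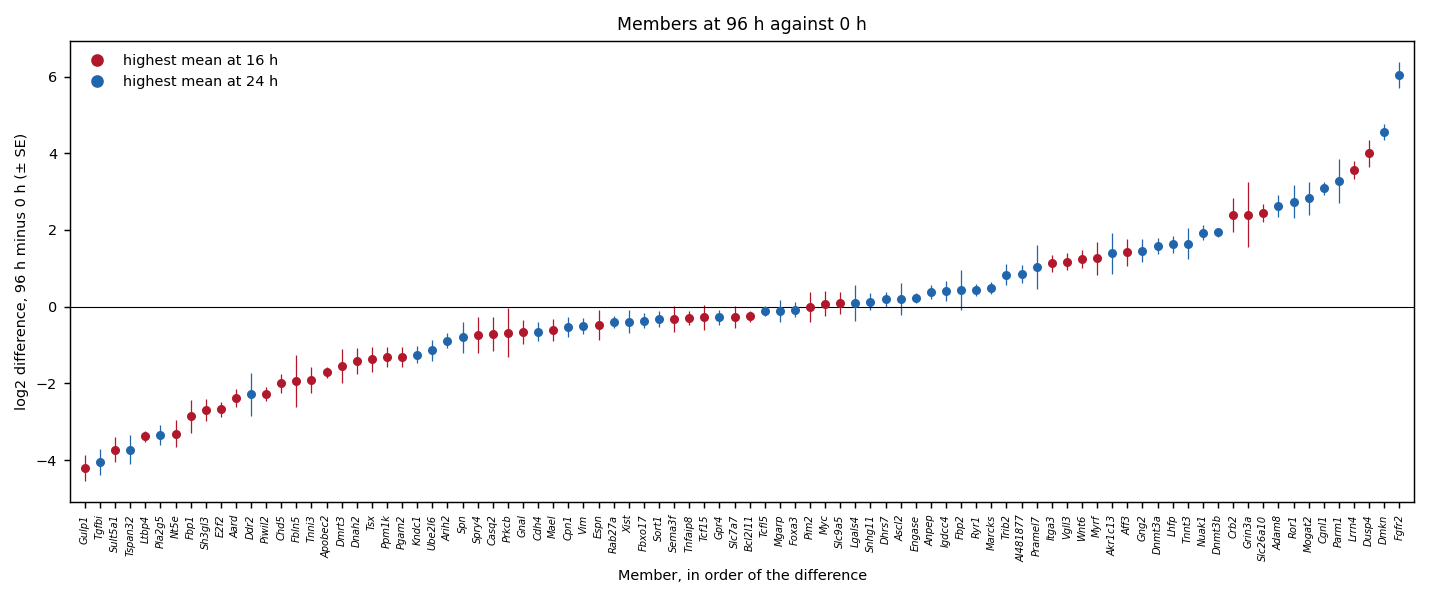
Log2 difference in normalized count between 96 h and 0 h for 88 of the 90 members, with SE from limma; red marks members highest at 16 h and blue those highest at 24 h. The members run from Gulp1 (-4.21) to Fgfr2 (6.04), on both sides of 0.

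Signalling regulators made up 10 of the members, 5 at each peak time. *Spry4*, a Sprouty inhibitor of receptor tyrosine kinase signalling, had normalized counts of 449.95, 526, 36.3 and 50.996 (0 h), 1343, 1286, 1111 and 1216 (2 h), 585, 601, 627 and 645 (4 h), 1968, 1996, 1945 and 1816 (16 h) and 61.5, 65.2, 115 and 121 (96 h). The replicate sets differed widely at 0 h, but every later sample up to 16 h lay above every 0 h sample, and the 4 h samples lay below all 2 h and 16 h samples. *Spry4* rose from 0 to 2 h (log2 difference 3.08 ± 0.48, adjusted p = 6.11e-06), was not called from 2 to 4 h (-1.01 ± 0.48, adjusted p = 0.152) and fell between 8 and 48 h (-2.09 ± 0.48, adjusted p = 0.000346).

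*Dusp4*, a phosphatase that inactivates MAP kinases in the nucleus, had 22.1, 25.1, 3.22 and 9.44 (0 h), 245, 271, 338 and 348 (2 h), 1130, 1177, 1542 and 1552 (16 h) and 124, 133, 313 and 332 (96 h). No 0 h sample reached any later one, and the 96 h samples stayed between the 0 h and 16 h samples. It rose at 2 h (4.55 ± 0.36, adjusted p = 2.02e-11) and again from 4 to 8 h (1.36 ± 0.36, adjusted p = 0.00995). Of the 10 MAPK phosphatase genes measured, 8 rose and 2 fell at 2 h (22.2% and 22.6% of all genes did), and 3 had their highest mean at 16 or 24 h (13.3% of tested genes with a symbol). *Dusp4* alone among them met the rule.

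*Prkcb*, the beta form of protein kinase C, was near the detection limit outside the pulse. It had 0, 2.04, 4.03 and 7.55 (0 h), 9.43, 2.68, 13.999 and 15.96 (8 h), 90.5, 71.7, 162 and 170.02 (16 h), 26.4, 35.04, 26.4 and 25.3 (24 h) and 3.18, 0, 3.77 and 0 (96 h). The 4 samples at 16 h lay above all others, although replicates 3 and 4 were 2.05 times as high as replicates 1 and 2. It was the member that passed the filter on low counts only through its 16 and 24 h samples, and nothing is read from its lack of calls in the 5 comparisons. Of the 8 genes of the protein kinase C family that were tested, 2 had their highest mean at 16 or 24 h (13.3% of tested genes with a symbol). The rule placed 1 of these there, *Prkcb* itself.

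*Pim2*, a serine/threonine kinase that supports survival and growth, went from 123, 110.1, 64.5 and 83.1 (0 h) to 1044, 999, 486 and 469 (16 h) and 66.8, 53.6, 138 and 139 (96 h). All 16 h samples were above the 0 and 96 h samples, and replicates 1 and 2 were 2.14 times as high as replicates 3 and 4. The other signalling members were *Trib2*, *Marcks*, *Kndc1*, *Nuak1*, *Gng2* and *Gnal*, the last 2 being subunits of heterotrimeric G proteins and *Marcks* a membrane-bound substrate of protein kinase C. *Marcks* and *Nuak1*, an AMPK-related kinase, rose at 2 h and again at 4 h. At 48 h this role group stood at 7.71 to 94.3% of its peaks.

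Transcription factors and cofactors numbered 11, of which 8 were highest at 16 h. *Myc*, the growth regulator, had 163, 223, 58.03 and 52.9 (0 h), 679, 647, 342 and 378 (2 h), 716, 747, 726 and 746 (16 h) and 111, 134, 97.9 and 95.5 (96 h). *Vgll3*, a cofactor of TEAD proteins, had 15.2, 23.1, 22.6 and 18.9 (0 h), 272, 248, 169.997 and 157 (2 h), 389, 413, 276 and 266 (16 h) and 62.6, 66.3, 37.7 and 27.4 (96 h). Both rose at 2 h with no overlap between groups (*Myc* 2.23 ± 0.32, adjusted p = 1.47e-06; *Vgll3* 3.32 ± 0.23, adjusted p = 6.63e-13), and both fell between 8 and 48 h (*Myc* -1.83 ± 0.32, adjusted p = 9.81e-06; *Vgll3* -1.98 ± 0.23, adjusted p = 6.79e-09).

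*Tcf15*, a bHLH factor linked to exit from the naive state, was at 71.8, 44.2, 31.4 and 26.4 (0 h), 55.8, 55.4, 34.2 and 23.6 (8 h), 220.04, 191, 167 and 155 (16 h) and 35.02, 34.7, 28.9 and 34.04 (96 h). Its 16 h samples stood above all 0, 8 and 96 h samples, and no comparison outside the peak called it. *E2f2*, a cell cycle factor, ended well below its start, with 149, 125, 139 and 128 (0 h), 386, 384, 509 and 514 (16 h) and 25.5, 15.8, 20.1 and 20.8 (96 h) (-2.68 ± 0.19). Of the 8 E2F genes, it alone met the rule.

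*Ascl2*, a bHLH factor of the trophoblast and intestinal stem cells, was the single factor of this group called lower at 2 h. It had 15.2, 19.7, 5.64 and 15.1 (0 h), 1.04, 3.02, 2.34 and 1.64 (2 h), 31.4, 35.7, 20.998 and 24.3 (8 h), 167, 192, 89.4 and 83.99 (24 h) and 24.4, 29.4, 7.53 and 8.51 (96 h). It fell at 2 h (-2.24 ± 0.42, adjusted p = 9.12e-05), rose at 4 h and rose from 4 to 8 h (2.15 ± 0.42, adjusted p = 0.00065), the latter with an adjusted p of 0.106 after averaging within the replicate sets. The 2 h samples of *Ascl2* were near the level of 3 reads, so its fall at 2 h and its rise at 4 h rest on few reads. *Foxa3*, a forkhead factor of endoderm, held 82.8% of its peak at 48 h, and *Tcfl5*, *Aff3*, *Dmrt3* and *Myrf* were also in the group.

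Receptors and ligands were 7 members, 5 of them highest at 24 h. *Fgfr2*, an FGF receptor of the PrE, had 2.76, 5.44, 11.3 and 9.44 (0 h), 61.3, 58.1, 97.02 and 88.4 (4 h), 1266, 1353, 1718 and 1668 (24 h), 876, 910.1, 1079 and 1119 (48 h) and 523, 468, 495 and 482 (96 h). Its 96 h samples did not return to the 0 h level, and each of these groups was separate from the others. It rose from 2 to 4 h (3.23 ± 0.34, adjusted p = 4.76e-08), from 4 to 8 h (1.30 ± 0.34, adjusted p = 0.0101) and between 8 and 48 h (2.42 ± 0.34, adjusted p = 4.09e-07), and was higher at 96 h than at 0 h (6.04 ± 0.34).

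Of the 5 FGF receptor genes, 3 were higher and 1 lower at 96 h than at 0 h (38.0% and 38.5% of all genes were). *Fgfr2* was the single one with its peak at 16 or 24 h, where the rule placed it (13.3% of tested genes with a symbol peaked there). Per kb of exon, *Fgfr1* had a mean of 66.2 normalized counts at 0 h and 26.7 at 24 h, and *Fgfr2* reached 145 at 24 h. *Wnt6*, a Wnt ligand, had 4.14, 5.44, 4.03 and 3.78 (0 h) and 31.2, 30.2, 24.6 and 26.3 (2 h) and rose there without overlap (2.45 ± 0.23, adjusted p = 8.93e-10). The others were the semaphorin *Sema3f*, the proton-sensing receptor *Gpr4*, the Wnt co-receptor *Ror1*, the collagen receptor *Ddr2* and *Igdcc4*. In *Ddr2* the replicate sets differed 3.31-fold at 24 h, and its 0 h samples (20.7, 23.1, 126 and 144) overlapped its 24 h samples (91.3, 98.9, 311 and 319.6).

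*Dnmt3a* and *Dnmt3b*, the de novo DNA methyltransferases, were among the most counted members. *Dnmt3a* had 275, 337, 134 and 161 (0 h), 1930, 2010, 1020 and 1084 (8 h), 6386, 6187, 6504 and 6859 (24 h) and 739.6, 677, 569.9 and 561 (96 h). *Dnmt3b* had 699.8, 887, 579 and 557 (0 h), 3303, 3248, 2885 and 2928 (8 h), 8214, 8059, 8779 and 9190 (24 h) and 2236, 2174, 3109 and 2872 (96 h). In both genes all 24 h samples lay above all others, and the 96 h samples lay above the 0 h samples.

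The mean of *Dnmt3a* at 24 h was 28.6 times that at 0 h, and that of *Dnmt3b* 12.6 times. Per kb of exon, *Dnmt3b* reached 1677 normalized counts at 24 h and *Dnmt3a* 389.6. *Dnmt3a* rose at 2 h (1.04 ± 0.21, adjusted p = 0.000186), at 4 h (0.64 ± 0.21, adjusted p = 0.0296) and at 8 h (1.08 ± 0.21, adjusted p = 0.000535), whereas *Dnmt3b* was not called at 2 h (-0.10 ± 0.11, adjusted p = 0.52) and rose at 4 h (0.91 ± 0.11, adjusted p = 5.15e-07) and 8 h (1.39 ± 0.11, adjusted p = 1.57e-10). Between 8 and 48 h *Dnmt3a* rose (0.77 ± 0.21, adjusted p = 0.00195) and *Dnmt3b* fell (-0.26 ± 0.11, adjusted p = 0.0435), and both were higher at 96 h than at 0 h (1.58 and 1.94). Of the 9 DNA methylation and demethylation genes tested, 4 had their highest mean at 16 or 24 h (13.3% of tested genes with a symbol). The rule placed 2 of these 4 there, *Dnmt3a* and *Dnmt3b*. *Chd5*, a chromatin remodeller, was the third member of this role group.

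Metabolic enzymes were 10 members, and they included both fructose-1,6-bisphosphatases, which catalyse a step of gluconeogenesis. *Fbp1*, the liver isozyme, had 6.90, 4.76, 4.84 and 9.44 (0 h), 38.5, 47.3, 50.6 and 41.8 (8 h), 112, 106, 139.8 and 126 (16 h), 76.9, 85.7, 87.3 and 86.4 (24 h) and no reads in any sample at 96 h. *Fbp2*, the muscle isozyme, had 19.3, 21.1, 60.5 and 77.4 (0 h), 289.9, 293, 707 and 677 (8 h), 1007, 1008, 1877 and 1908 (16 h), 1822, 1651, 2321 and 2430 (24 h) and 53.1, 54.7, 47.7 and 47.3 (96 h). For each gene the 16 and 24 h samples stood above all samples at 0, 8 and 96 h.

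The mean of *Fbp1* at 16 h was at least 37.4-fold higher than at 96 h, taking 3 reads per library as the limit that 0 reads allow, and that of *Fbp2* at 24 h was 40.6 times its 96 h mean. Per kb of exon, the peak of *Fbp2* was 1399.7 normalized counts and that of *Fbp1* 71.1. Both rose from 2 to 4 h (*Fbp1* 1.61 ± 0.43, adjusted p = 0.00751; *Fbp2* 1.88 ± 0.52, adjusted p = 0.0102) and from 4 to 8 h (1.76 and 1.61), and neither was called at 2 h. Between 8 and 48 h *Fbp1* fell (-3.10 ± 0.43, adjusted p = 2.27e-07), and *Fbp2* was not called (-0.39 ± 0.52, adjusted p = 0.529). The other gluconeogenesis genes did not share this course, since none of the 4 that passed the filter on low counts besides these had its highest mean at 16 or 24 h. Among tested genes with a symbol, 13.3% did.

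*Fbp1* and *Fbp2* are also neighbours, at chromosome 13, 62864753 to 62888282 and 62836877 to 62858422 of GRCm38, both on the minus strand with 6.3 kb between them and no tested gene in the gap. Their upstream sequences are shown because they are the members closest to each other, beside those of *Slc26a10* and *Cpn1*, the members with the largest rise over both ends at 16 h and at 24 h. They are RefSeq windows on GRCm38.p6 of up to 250 bases before the start, cut where the GENCODE gene begins, and are given 5′ to 3′ on the gene's strand. Capitals mark AGATAA or TGATAA, the letters of a GATA site, and TGACTCA, those of an AP-1 site, on either strand.
*Fbp1*, chr13:62888283-62888532, minus strand: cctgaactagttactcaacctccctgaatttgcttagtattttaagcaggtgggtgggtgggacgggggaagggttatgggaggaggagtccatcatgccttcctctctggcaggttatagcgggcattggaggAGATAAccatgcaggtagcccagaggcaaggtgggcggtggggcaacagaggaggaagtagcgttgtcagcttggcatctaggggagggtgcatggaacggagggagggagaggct
*Fbp2*, chr13:62858423-62858650, minus strand: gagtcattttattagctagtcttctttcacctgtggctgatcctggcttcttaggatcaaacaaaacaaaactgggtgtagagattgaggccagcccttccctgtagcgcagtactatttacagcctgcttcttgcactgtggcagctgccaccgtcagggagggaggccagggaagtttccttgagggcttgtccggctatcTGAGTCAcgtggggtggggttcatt
*Slc26a10*, chr10:127180646-127180832, minus strand: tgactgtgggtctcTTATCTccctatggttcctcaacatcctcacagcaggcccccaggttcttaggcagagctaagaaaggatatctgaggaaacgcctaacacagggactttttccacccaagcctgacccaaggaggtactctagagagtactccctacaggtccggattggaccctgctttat
*Cpn1*, chr19:43986557-43986770, minus strand: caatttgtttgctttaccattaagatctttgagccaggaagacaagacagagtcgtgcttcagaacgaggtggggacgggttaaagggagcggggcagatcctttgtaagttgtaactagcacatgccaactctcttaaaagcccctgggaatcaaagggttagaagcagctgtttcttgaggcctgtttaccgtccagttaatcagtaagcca
Distances are counted from the RefSeq start. In the cut windows, such as *Slc26a10* (187 bases printed) and *Fbp2* (228), they exceed the distance to the printed end. *Fbp1* holds AGATAA from 116 bases before the RefSeq start, and *Slc26a10* holds its reverse complement from 236 bases before it. *Fbp2* holds the reverse complement of the AP-1 letters from 47 bases before it, and the *Cpn1* window holds neither.

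*Pgam2*, the muscle form of phosphoglycerate mutase, had 12.4, 18.3, 9.67 and 16.999 (0 h), 109.997, 116, 119.8 and 108 (8 h), 115, 142, 227 and 192 (16 h) and 6.37, 4.21, 5.02 and 4.73 (96 h). It rose more than 4-fold from 4 to 8 h (2.32 ± 0.26, adjusted p = 1.27e-07). Its paralogue *Pgam1* stayed between 219.8 and 313 normalized counts per kb of exon at all times, while *Pgam2* went from 17.1 at 0 h to 201 at 16 h and 6.05 at 96 h. *Akr1c13*, an aldo-keto reductase, had 2.76, 0, 3.22 and 3.78 (0 h), 3.93, 1.79, 3.11 and 0 (8 h), 85.3, 79.5, 89.4 and 98.7 (24 h) and 3.18, 5.26, 10.04 and 11.3 (96 h). Its 24 h samples stood far above all of these, but it has close paralogues with which reads may be shared, so its values are uncertain.

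*Mogat2*, a monoacylglycerol acyltransferase of lipid absorption, had 2.76, 2.72, 0.806 and 0 (0 h), 3.14, 4.46, 1.56 and 6.08 (8 h), 46.8, 56.3, 83.3 and 113 (24 h) and 41.5, 48.99, 41.3 and 43.3 (48 h). It kept 58.4% of its peak at 48 h and rose between 8 and 48 h (3.31 ± 0.43, adjusted p = 7.86e-08). The rest of the metabolic members were *Ppm1k*, *Sult5a1*, *Dhrs7*, *Engase* and *Pla2g5*, a phosphatase, a sulfotransferase, a dehydrogenase, a glycosidase and a phospholipase. Across the role group the share of the peak left at 48 h ran from 4.43 to 85.2%, with a median of 18.5%.

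**Figure D5:**
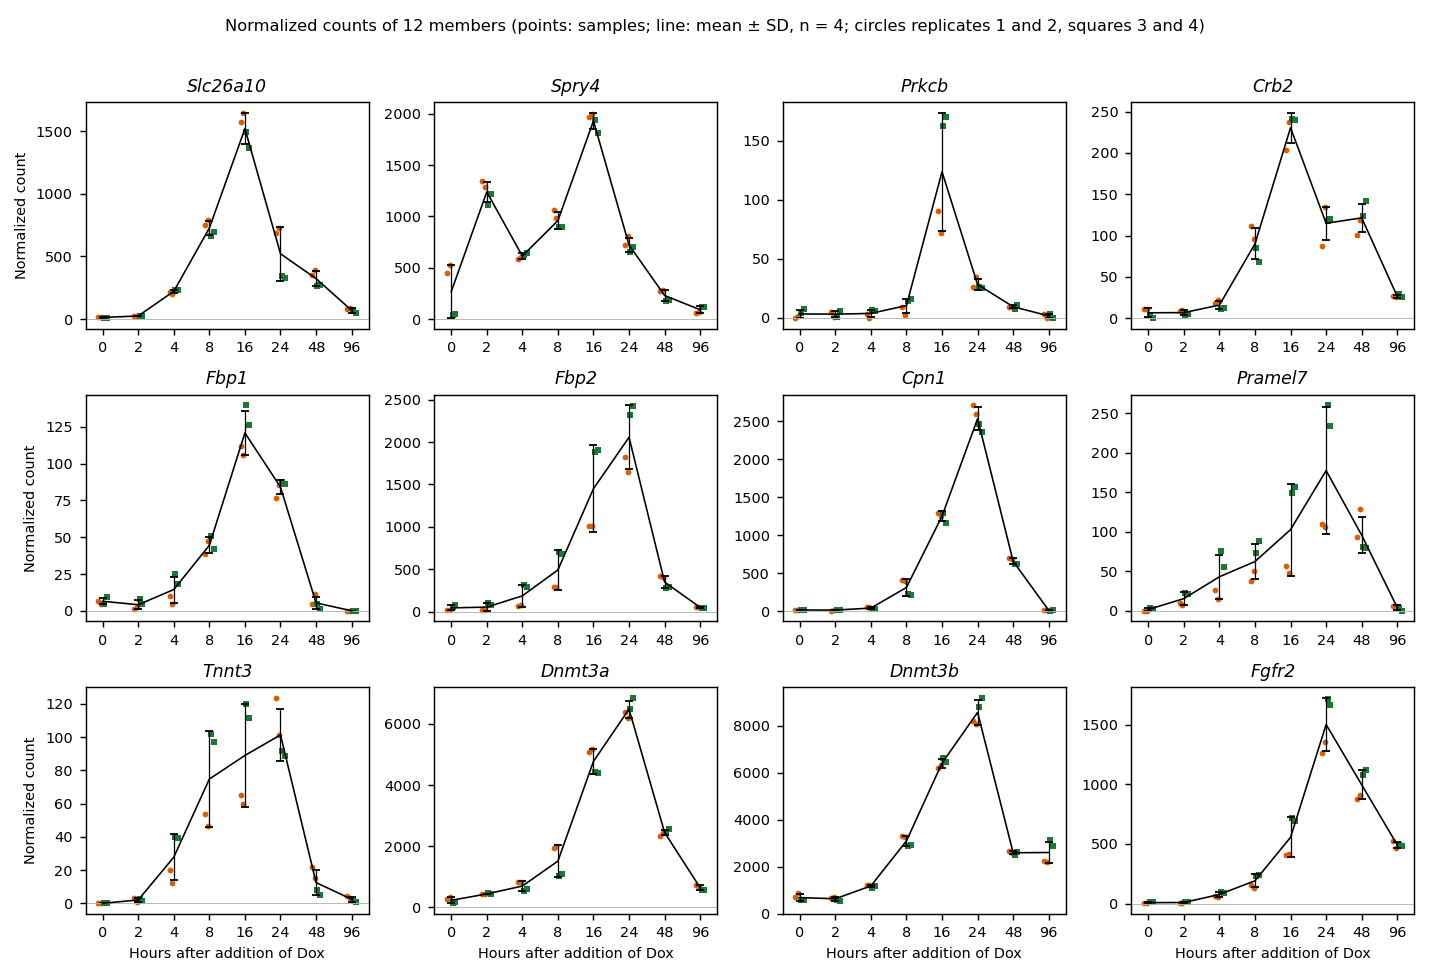
Normalized counts of 12 members at the 8 time points; circles are replicates 1 and 2, squares replicates 3 and 4, and the line joins means with SD (n = 4). Spry4 shows a first maximum at 2 h (1111 to 1343) and a second at 16 h, Fbp1 is at 0 in all 96 h samples, and Fgfr2 at 96 h stays above its 0 h samples.

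Genes known from muscle formed a role group of 5 members. *Tnnt3*, fast skeletal troponin T, had no reads in any 0 h sample, then 19.8, 12.1, 40.1 and 39.01 (4 h), 53.4, 46.4, 102 and 97.3 (8 h), 124, 101, 91.4 and 88.9 (24 h) and 4.24, 3.16, 1.26 and 0.945 (96 h). Its 24 h mean was at least 28.4-fold higher than at 0 h, again against 3 reads per library, and it rose at 2 h (to 0.755 to 3.12, near the level of 3 reads), at 4 h (3.19 ± 0.40, adjusted p = 8.23e-07) and at 8 h (1.47 ± 0.40, adjusted p = 0.0128). *Apobec2*, a muscle member of the APOBEC family, had 78.7, 97.2, 139 and 144 (0 h), 49.9, 46.8, 51.6 and 50.9 (2 h), 751, 702, 894 and 925 (16 h) and 38.2, 31.6, 28.9 and 34.98 (96 h). It fell at 2 h (-1.15 ± 0.14, adjusted p = 7.5e-08) before it rose at 4 h (0.95 ± 0.14, adjusted p = 7.61e-06) and 8 h (1.88 ± 0.14, adjusted p = 3.11e-11).

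*Ryr1*, the calcium release channel of skeletal muscle, had 53.8, 65.9, 78.2 and 88.8 (0 h), 81.7, 112, 112 and 121 (8 h), 378, 379.9, 544 and 462 (24 h) and 318, 377, 359 and 356 (48 h), with no overlap between the 8 h samples and those at 24 and 48 h. The remaining ones were *Casq2* and *Tnni3*, cardiac forms of calsequestrin and troponin I. Of a list of 30 skeletal muscle genes, 15 passed the filter and 8 of these had their highest mean at 16 or 24 h. Among all tested genes with a symbol, 13.3% did. The 8 include the members *Fbp2*, *Pgam2*, *Tnnt3*, *Ryr1* and *Apobec2*, which the rule placed there, so nothing about the list is read from this count. The defining factors *Myf5* and *Myf6* had 0 reads in every sample, *Myog* at most 1 and *Myod1* at most 10. The summed normalized count of the list was 2637 to 3136 (0 h), 3752 to 4508 (24 h) and 456 to 494 (96 h). The 5 members on the list, which the rule chose, feed the 24 h sum. *Fbp2* alone had a mean of 44.6 at 0 h and 2056 at 24 h, so the sum does not show a pulse of the other genes.

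Peptidases and ectoenzymes were 4 members, all of which rose from 2 to 4 h (43.3% of all members and 13.6% of all genes did) and again from 4 to 8 h (54.4% and 9.51%). *Cpn1*, the catalytic subunit of carboxypeptidase N, stood out furthest from both ends of the series. It had 16.6, 14.3, 21.8 and 16.999 (0 h), 413, 397, 221 and 218 (8 h), 1292, 1254, 1296 and 1157 (16 h), 2707, 2598, 2461 and 2356 (24 h), 696, 684, 627 and 619 (48 h) and 12.7, 15.8, 6.28 and 14.2 (96 h). The 24 h mean was 145 times the 0 h mean and 207 times the 96 h mean, and the 0 and 96 h samples overlapped. *Cpn1* rose at 4 h (1.39 ± 0.26, adjusted p = 0.000218) and 8 h (2.88 ± 0.26, adjusted p = 1.94e-09), and its difference between 96 and 0 h was small (-0.53 ± 0.26).

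*Nt5e*, the CD73 ectoenzyme that makes adenosine, had 224, 238, 121 and 113 (0 h), 899.6, 921, 911 and 966 (8 h), 1221, 1153, 895 and 927 (16 h) and 26.4, 43.3, 9.68 and 5.16 (48 h). The 48 h samples were below all 0 h samples, and the fall from 8 to 48 h was the steepest among members (-5.78 ± 0.35, adjusted p = 6.43e-15). *Anpep*, aminopeptidase N, had 19.3, 30.6, 33.05 and 41.6 (0 h), 342, 394, 286 and 266 (24 h) and 30.8, 36.8, 47.7 and 43.5 (96 h), and *Adam8*, a membrane metalloproteinase, was the fourth. Exons of *Adam8* overlap an antisense gene with a mean of 74.2 at 8 h, and its reads may not be separable.

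Adhesion, matrix and cytoskeleton genes were the largest role group, with 14 members. *Crb2*, a Crumbs protein of the apical membrane, had 11.04, 11.5, 4.03 and 0 (0 h), 18.8, 21.8, 11.2 and 12.1 (4 h), 112, 96.4, 84.8 and 67.7 (8 h), 204, 238, 241 and 239.9 (16 h) and 26.5, 25.2, 28.9 and 25.5 (96 h). It rose by more than 4-fold from 4 to 8 h (2.45 ± 0.45, adjusted p = 0.000267), and the 96 h samples remained above all 0 h samples (2.39 ± 0.45). *Cgnl1*, the junction protein paracingulin, had 42.8, 59.1, 39.5 and 58.6 (0 h), 28.1, 37.7, 29.3 and 22.98 (2 h), 1128, 1239, 1308 and 1372 (24 h) and 445, 426, 443 and 391 (96 h). It fell at 2 h (-0.74 ± 0.16, adjusted p = 0.000583) and later rose, so that 96 h exceeded 0 h (3.09 ± 0.16). A list of Crumbs and PAR polarity genes, on which the junction protein *Cgnl1* was also counted, had 11 tested genes. Of these, 3 had their highest mean at 16 or 24 h (13.3% of tested genes with a symbol). The rule placed 2 of the 3 there, *Crb2* and *Cgnl1*.

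*Ltbp4*, which binds latent TGF-beta, had 719, 902, 714 and 725 (0 h), 2080, 2327, 3032 and 2719 (16 h) and 62.6, 76.8, 89.1 and 62.4 (96 h). *Itga3*, the alpha3 subunit of laminin-binding integrin, had 206, 234, 449.8 and 468 (0 h), 1235, 1110, 1137 and 1120 (2 h), 1827, 1960, 2665 and 2593 (16 h) and 588, 530.1, 889.96 and 855 (96 h). They ended on opposite sides of the start, *Ltbp4* lower (-3.39 ± 0.13) and *Itga3* higher (1.13 ± 0.22). *Vim*, the intermediate filament vimentin, was abundant at all times, with 2506, 2235, 1182 and 1184 (0 h), 5310, 5281, 7560 and 7573 (24 h) and 948, 900.3, 1490 and 1512 (96 h). It is on the list of parietal endoderm genes, of which 9 of 10 were higher at 96 h than at 0 h (38.0% of all genes were) and *Vim* was lower (-0.51 ± 0.21). The rule asked for a 96 h mean at least 1.5 below the peak. It thereby favours a low 96 h value of *Vim*, and nothing is read from this contrast.

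*Dnah2*, an axonemal dynein heavy chain, had 8.28, 15.6, 44.3 and 41.6 (0 h), 205, 222, 295 and 269 (16 h) and 9.55, 6.31, 6.28 and 9.45 (96 h). Its highest samples were clear of both ends, and an antisense gene over its exons reached a mean of 39.03 at 4 h. *Lrrn4*, a leucine-rich repeat membrane protein, had 9.66, 11.5, 8.06 and 11.3 (0 h), 51.4, 55.7, 64.9 and 70.2 (4 h), 213, 218, 290.1 and 275 (8 h) and 597, 607, 633 and 668 (16 h). It rose at 4 h (2.94 ± 0.23, adjusted p = 1.21e-10) and 8 h (2.02 ± 0.23, adjusted p = 2.43e-07), each time by at least 4-fold. The others were *Espn*, *Fbln5*, *Dmkn*, *Tgfbi*, *Spn*, *Cdh4* and *Lgals4*.

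All 5 transporters and channels were highest at 16 h. *Slc26a10*, of the SLC26 family of anion transporters, had 16.6, 14.9, 12.1 and 5.67 (0 h), 23.9, 24.2, 24.6 and 24.6 (2 h), 218, 204, 233 and 231 (4 h), 753, 794, 666 and 697 (8 h), 1578, 1650, 1497 and 1365 (16 h) and 83.8, 88.3, 60.3 and 44.4 (96 h). Each of these groups lay above the one before it up to 16 h, and the 16 h mean was 124 times the 0 h mean. The steps at 2 h (1.02 ± 0.24, adjusted p = 0.00125), 4 h (3.13 ± 0.24, adjusted p = 9.74e-11) and 8 h (1.71 ± 0.24, adjusted p = 9.21e-06) were all called. Its exons overlap those of *B4galnt1* on the other strand, which had a mean of 133 at 16 h and its highest mean of 399 at 48 h.

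*Grin3a*, an NMDA receptor subunit, had 20.4, 19.6, 174 and 180.2 (8 h) and 24.4, 20.4, 181 and 203 (16 h), so that replicates 3 and 4 were 8.58 times as high as replicates 1 and 2 at the peak. Its rise from 2 to 4 h (2.28 ± 0.85, adjusted p = 0.0603) was lost without replicate 1, 3 or 4, at adjusted p values of 0.142, 0.193 and 0.171. Replicates 1 and 2 alone would not have passed the threshold of the rule for this gene. *Slc7a7*, an amino acid transporter, and *Slc9a5*, a sodium/proton exchanger, were also in the group.

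Germ line genes were 4 members, namely *Tsx*, *Mael*, *Piwil2* and *Pramel7*, of which *Mael* and *Piwil2* act in the piRNA pathway. *Pramel7*, a PRAME family gene of early embryos, had 0, 0, 3.22 and 1.89 (0 h), 9.35, 7.55, 22.3 and 21.3 (2 h), 109, 106, 259.9 and 233 (24 h) and 6.37, 5.26, 3.77 and 0 (96 h). It rose at 2 h (2.97 ± 0.57, adjusted p = 0.000111), from at most 4 reads in any 0 h sample. At 24 h replicates 3 and 4 were 2.29 times as high as replicates 1 and 2, in which the highest mean fell at 48 h. Of the 3 tested PRAME-like genes all rose at 2 h, next to 22.2% of all genes. *Pramel7* alone was highest at 16 or 24 h, where the rule placed it, next to 13.3% of tested genes with a symbol. Reads may be shared among these paralogues.

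*Xist*, the non-coding RNA that coats the inactive X chromosome, had 20.7, 20.4, 94.3 and 62.3 (0 h), 109.997, 105, 105 and 98.1 (8 h), 275, 319, 331 and 263 (24 h) and 40.3, 33.7, 23.8 and 25.5 (96 h). Its 24 h samples were above all others, and *Tsx*, which lies 35.8 kb away on chromosome X with no tested gene between them, had 6.90, 11.5, 12.1 and 3.78 (0 h), 69.6, 52.9, 101 and 93.2 (16 h) and 3.18, 2.104, 1.26 and 3.78 (96 h). The antisense gene *Tsix* overlaps *Xist*, and its mean went from 48.8 at 0 h to 35.1 at 24 h and 21.3 at 96 h. The library kit keeps strand, but the strand setting of the counting is not given in the sources used here, so the split between *Xist* and *Tsix* is uncertain. *Snhg11* was the other non-coding RNA.

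Trafficking genes were 4 members, and all 4 rose from 4 to 8 h (54.4% of all members and 9.51% of all genes did) and fell between 8 and 48 h (48.9% and 36.3%). *Rab27a*, a GTPase of secretory vesicle release, had 145, 129.8, 102 and 79.3 (0 h), 302, 344, 290.3 and 274 (4 h), 806, 730.3, 818 and 842 (24 h) and 77.5, 69.4, 97.9 and 90.8 (96 h). It rose at 4 h without overlap with 2 h (1.52 ± 0.16, adjusted p = 2.77e-08). Of the 4 tested genes of RAB27 secretion, 2 had their highest mean at 16 or 24 h (13.3% of tested genes with a symbol). The rule placed 1 of these there, *Rab27a* itself. *Gulp1*, an engulfment adaptor, had 23.7, 31.5, 56.1 and 57.2 (4 h), 186, 221, 162 and 213 (8 h), 233, 209, 226 and 227 (16 h) and 5.31, 1.05, 1.26 and 1.89 (96 h). *Sort1* and *Sh3gl3* were the others.

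The ubiquitin and cell death group had 5 members. *Arih2*, an E3 ubiquitin ligase, was among the most counted, with 1466, 1512, 2222 and 2412 (0 h), 4299, 4334, 5662 and 5522 (8 h), 4672, 4680, 6427 and 6472 (24 h) and 1121, 1089, 911 and 918 (96 h). It rose at 2 h and at 4 h, when its mean was 94.1% of the peak, and was lower at 48 h than at 8 h (-0.85 ± 0.19, adjusted p = 0.000332). *Bcl2l11*, the pro-apoptotic protein BIM, rose at 2 h (1.26 ± 0.14, adjusted p = 3.66e-08), and *Tnfaip8*, *Ube2l6* and *Fbxo17* completed the group. The 6 further members fell in no role group, namely *Aard*, *Lhfp*, *Parm1*, *Mgarp*, *Tspan32* and AI481877.

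The lineage lists of the study come from single cells of blastocysts. Of its 579 PrE genes, 571 were matched and 5 were members, *Pgam2*, *Cpn1*, *Mogat2*, *Fgfr2* and *Cgnl1*. None of the 218 matched Epi genes was a member. Of 15 tested formative epiblast genes, 4 were members (*Dnmt3a*, *Dnmt3b*, *Tcf15* and *Pim2*) and 5 were highest at 16 or 24 h. The summed normalized count of the list was 3698 to 5629 (0 h), 16605 to 18040 (24 h) and 3375 to 4428 (96 h). Most of the 24 h sum was *Dnmt3a* (6187 to 6859) and *Dnmt3b* (8059 to 9190), which the rule chose. The sum therefore does not show a pulse of the other genes on the list. Highest at 16 or 24 h were 33 of 571 tested PrE genes and 13 of 214 tested Epi genes. Of the 12 lower glycolysis genes 4, and of the 11 tested ectoenzyme genes 4, were highest at these times. The rule placed 1 of the former there (*Pgam2*) and 3 of the latter (*Anpep*, *Nt5e* and *Cpn1*). Among all 13340 tested genes with a symbol, 13.3% were highest at 16 or 24 h.

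Summed normalized counts of marker lists are given for comparison. The 12 naive pluripotency genes summed to 28117 to 39019 (0 h), 11015 to 12825 (24 h) and 6310 to 6880 (96 h), and the 12 PrE genes to 1060 to 1302, 51473 to 90166 and 278684 to 378741. The visceral endoderm list (6 of 10 tested) was at 3664 to 6076 at 0 h and 4601 to 5968 at 24 h. The trophoblast list (8 of 10 tested) was at 1136 to 1275 at 0 h and 1307 to 1500 at 24 h. The mesoderm list (5 of 9) was at 296 to 797 and 137 to 218, and the neural list (4 of 9) at 393 to 581 and 246 to 374. No gene of these short naive, PrE, visceral endoderm, trophoblast, mesoderm and neural lists was a member. They leave out the members *Ascl2* and *Foxa3*, and 5 members were on the longer PrE list of the study. The part of other cell types in the pulse was not tested.

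In the genome, 20 of the 90 members (22.2%) lie on chromosome 7, which holds 8.1% of the tested genes. They include *Prkcb*, *Ltbp4*, *Tnnt3*, *Anpep*, *Fgfr2*, *Mogat2*, *Foxa3* and *Ryr1*. Within 200 kb of each other were 8 pairs of members, and 5 of these are on chromosome 7. *Ascl2* and *Tspan32*, 35.8 kb apart with no tested gene between them, both fell at 2 h and were highest at 24 h. *Kndc1* and *Adam8*, 37.4 kb apart, were also highest at 24 h, but the gap holds *Utf1*, highest at 16 h, and a gene highest at 8 h. The other pairs were *Fbxo17* and *Lgals4*, *Lgals4* and *Ryr1*, *Espn* and *Chd5*, and *Foxa3* and *Gpr4*, with 5 to 10 tested genes in each gap.

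Exons of 25 members overlap those of another annotated gene, and for 9 the partner reached a mean of at least 10. These were *Slc26a10*, *Dnah2*, *Crb2*, *Slc7a7*, *Gnal*, *Tnni3*, *Xist*, *Adam8* and *Fgfr2*, with the partner on the opposite strand in 7. *Dennd1a*, over *Crb2*, had a mean of 133 at 0 h and 133 at 16 h, whereas *Crb2* went from 6.66 to 231. *Ctbp2*, whose annotation meets *Fgfr2*, went from 1668 at 0 h to 1039 at 24 h.

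RefSeq upstream windows were found for 71 members. AGATAA or TGATAA, on either strand, occurred in the 250 bases before the start of 10 of them (14.1%), compared with 11.1% of 10480 tested genes and 18.8% of all 27025 genes with a window. TGACTCA occurred in 3 (4.23%), compared with 3.82% and 5.16%. A match describes letters only. The ratio of observed to expected CpG in these windows exceeded 0.6 in 45.1% of members and 67.3% of tested genes.

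The same thresholds at other peak times gave 83 genes (2 h), 54 (4 h), 54 (8 h) and 39 (48 h). Just inside the threshold of 1.5 were *Pla2g5* (1.501), *Lgals4* (1.502) and *Igdcc4* (1.533), and just outside it *Sycp1* (1.498), *Btn2a2* (1.485) and AA414768 (1.473). Just above the minimum of 6 were *Dmrt3*, *Spn* and *Ror1*, with highest means of 6.006, 6.136 and 6.147, and just below it *Fam83e*, *Atp4a* and *Adad2*, with 5.997, 5.991 and 5.953.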

How the data were processed

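RNA-seq libraries (polyA-selected, stranded, single-end) from 32 samples were processed by the authors, and the submitters' notes name FastQC 0.11.8, cutadapt 2.7, HISAT2 2.1.0, featureCounts of Subread 1.6.4 and GRCm38.p6. The deposited values are on a log2 scale after the variance-stabilizing transformation of DESeq2, made by the authors from size-factor-normalized counts. The rule that chose the members used these deposited log2 values directly. For all other values the transformation was inverted to normalized counts, of which 100% corresponded to whole reads within a tolerance of 1e-06. Totals on genes lay between 3190108 and 12301732 reads, so that 3 reads correspond to between 1.88 and 7.27 normalized counts, and such limits cover counting error only.

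Samples were grouped by the labelled time point. The 15227 genes that reached 10 normalized counts in 4 or more samples were tested with limma 3.58.1 (R 4.3.3) on log2(normalized count + 1) with a mean-variance trend over all 32 samples and Benjamini-Hochberg adjustment, two-sided, at an FDR of 0.1. Differences on this scale understate the change of low genes. The test was checked on simulated data. Python 3.11.15 with pandas 2.3.3 was used for the rest. Alternatives changed the pseudocount, filter, scaling, thresholds, replicates and test, and those on the replicate sets were added after seeing the data.

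The members and gene lists were chosen with earlier results of these data known. Members named with values are, for each peak time, the 6 with the largest excess of the peak over 0 and 96 h and the 4 with the highest peak mean, those on a gene list, those next to a threshold, those behind counts of 5 or fewer and the largest differences at 96 h. A few others (*Myc*, *Vgll3*, *Ascl2*, *Wnt6*, *Dmkn*, *Lrrn4*, *Grin3a*, *Xist*, *Tsx*, *Bcl2l11* and *Foxa3*) were named after their values were seen. Strand settings of the counting are not given in the sources used here. The values of 2 members are not reported here, and both are left out of the plots that name genes, while counts over all members include them.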

Additional observations from a re-analysis of the deposited data

Results flagged for a closer look

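Among 54 groups of 4 samples (18 named members at 3 time points each), 1 held a sample far from the others. *Ltbp4* at 0 h had a normalized count of 902.2 in replicate 2, against 714.1 to 725.3 in the other replicates, a gap of 0.941 of the whole range which is past the 95% critical value of Dixon's test for 4 samples. Chance flags about 1 in 20 such groups.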

How the results depend on the processing

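The number of members was 90, and it was 46 with a threshold of 2 in place of 1.5. Leaving out each replicate in turn gave 83 to 92 members. Replicates 1 and 2 alone gave 89 genes, of which 67 were members, and replicates 3 and 4 alone gave 93, of which 71 were members, with 50 members in both. The counts of called members (26 higher at 2 h, 39 higher at 4 h, 49 higher at 8 h, 44 lower at 48 h, 29 higher and 34 lower at 96 h) became 7, 5, 6, 16, 12 and 13 when a 4-fold difference was also required. Averaging within the replicate sets, chosen after seeing the data, gave 16 at 4 h and 14 at 8 h with fewer values a group. Without each replicate in turn the counts ran from 24 to 27, 28 to 34, 37 to 44, 41 to 42, 28 to 31 and 32 to 36. The replicate block gave 29, 44, 56, 46, 31 and 35. Deviations of same-numbered samples correlated at a mean r of 0.196 (lowest -0.043), no more than those of its set partner (0.196), and the numbers did not pair samples beyond the sets. Every other alternative run left these counts within 1.5 times. Of the single tests of named members, 476 kept their direction and side of the threshold, and 10 kept the direction only, 9 of them for *Grin3a* at 4 h (log2 difference 1.601 to 3.09) and 1 for *Ascl2* at 8 h. Depth limits members with few reads at 0 or 96 h, such as *Prkcb*, *Tnnt3* and *Fbp1*.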
